A study of Mus musculus with 12 samples.

Results

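Cell cycle genes encode the proteins that copy the genome and divide the cell, and 40 of them were read here in the apex of the adult mouse heart. The genes were taken by name: every array probe whose transcript accession mapped to a listed proliferation gene was used, which gave 54 probes, and 11 of the genes had more than 1 probe. Of the 40 genes, 37 were among the 29795 tested genes and unnamed features, of which 17259 carried a symbol. The genes fall into 3 roles: 10 act in DNA replication, 12 are cyclins and other regulators of the cycle, and 18 belong to the spindle, the kinetochore or the dividing chromosome.

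The series compared hearts of mice in which the gene for the cardiac homeobox factor Nkx2-5 had been altered by knock-in. The 4 groups of 3 arrays are control/+, in which the knock-in keeps the isoleucine at residue 183, I183M/+ and I183P/+, in which methionine or proline replaces it, and delta/+, in which the gene is deleted. All mice were adult C57BL/6J males of 15 weeks, all carried a + allele beside the altered one, and RNA came from the whole apex with all of its cell types. The labels name no founder clone and do not say that replicates are separate animals, so the p-values measure the spread between these samples.

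In an adult heart nearly all muscle cells have left the cell cycle, and most dividing cells are of other types, such as endothelial, connective tissue and blood-derived cells. Genes of the replication fork are switched on by E2F factors late in G1, while genes of mitosis are held off by the DREAM complex and switched on later by B-Myb and FoxM1. The replication protein PCNA also serves DNA repair. Mitotic proteins such as cyclin B and survivin are degraded as cells divide. The protein Ki-67, encoded by Mki67, coats mitotic chromosomes and is the usual stain for cells in cycle.

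The 12 arrays were not alike in depth of signal. The scanner software called 99.1% of the spots of control replicate 1 well above background, while on the other 11 arrays this share lay between 51.2% and 75.2%. The median processed intensity of that array was 602, and that of the others lay between 34.8 and 92.5. After scaling, its dim probes read high and its bright ones low. Differences from control that rest on it are therefore given with and without it. The 8 markers of ventricular cardiomyocytes and the markers of endothelial cells, fibroblasts and smooth muscle (6 of 6 in each list) were well above background on all 12 arrays, which matches the labelled tissue. Of the 6 macrophage markers 4 were so, with Cd68 not tested, and of the 6 lymphocyte markers only the T cell gene Cd3e was. A list of 6 lung and thymus markers was also read, of which 3 were tested. Dntt was well above background on all 12 arrays, Scgb1a1 on 6 and Sftpc on 3. Carry-over of such tissue was not tested. Pairs of arrays held no identical columns of values, and their rank correlations over probes ranged from 0.657 to 0.967.

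Detection differed by role. Of the 40 genes, 23 were well above background on all 12 arrays, 16 on 1 to 11 arrays and 1, the cyclin E gene Ccne2, on none. The 23 comprised 9 of 10 replication genes, 8 of 12 cyclins and regulators, and 6 of 18 genes of the spindle, kinetochore and chromosome. Ttk, a checkpoint kinase, and Aurkb, the kinase of the chromosomal passenger complex, were above background on control replicate 1 only and were not tested, nor was Ccne2. With control replicate 1 left out, 23 genes were detected on all 11 arrays and 36 on at least 3. Per array, control replicates 1 to 3 had 39, 31 and 29 detected cell cycle genes and I183M replicates 34, 28 and 28. I183P replicates had 26, 30 and 36, and delta replicates 33, 36 and 28. Arrays of one line thus differed widely. The share of all probes detected ranged from 50.1% to 74.9% outside control replicate 1 and did not always follow these counts: delta replicate 3 had 28 genes at 59.2% of probes, and I183P replicate 3 had 36 at 59.8%. By the scanner software's more lenient call of a positive and significant signal, 35 of the 40 genes were present on all 12 arrays.

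**Figure D1:**
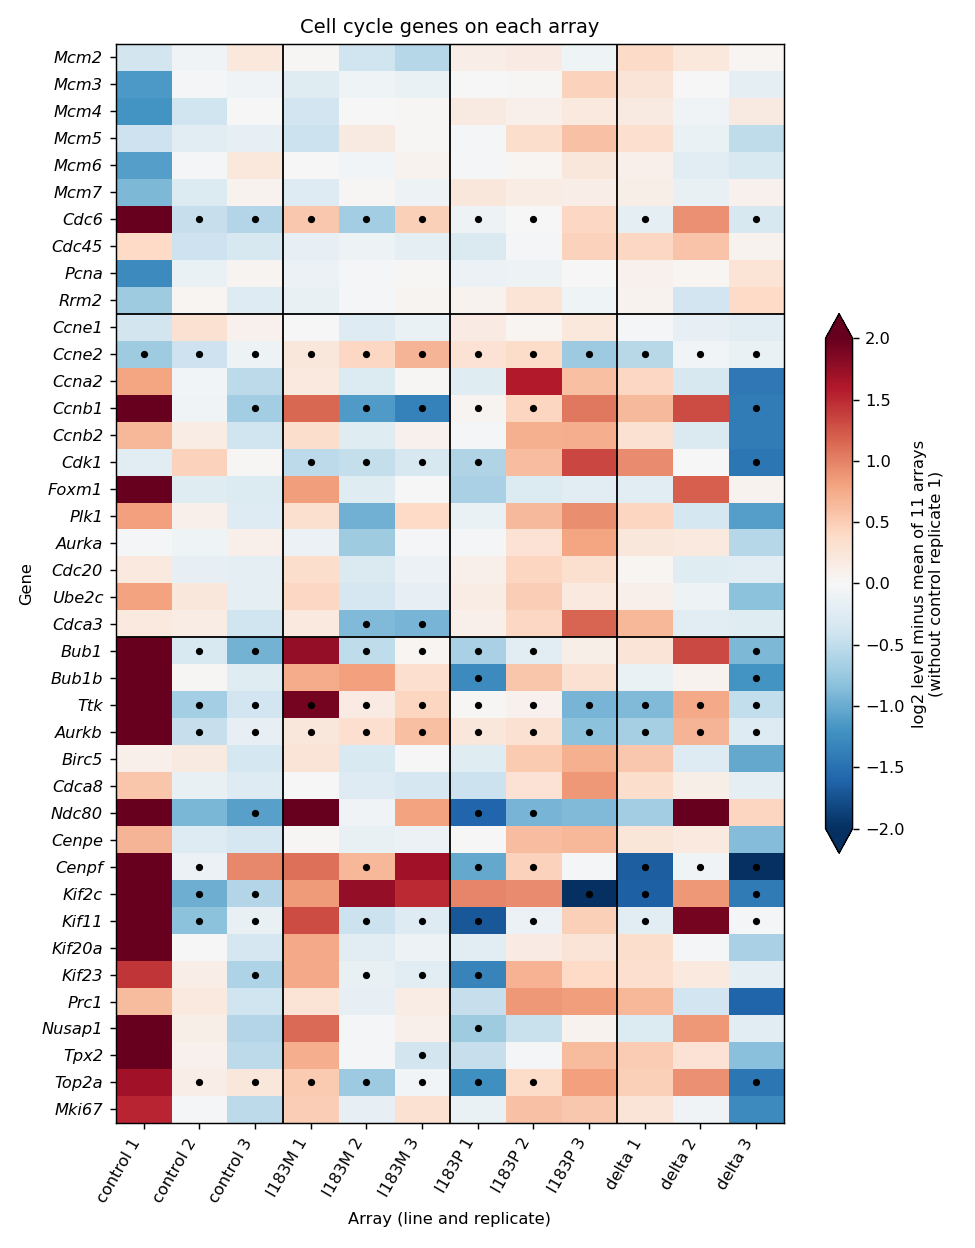
Level of each of the 40 cell cycle genes on each of the 12 arrays, as log2 level relative to the array's 75th percentile minus the gene's mean over the 11 arrays other than control replicate 1; rows are ordered by role and a dot marks a probe not well above background on that array. Control replicate 1 is dark red for dim spindle genes and blue for the bright replication genes, and below the first line the 14 detected genes outside replication tend to be red on I183P replicates 2 and 3 and blue on delta replicate 3.

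The main feature of the mitotic genes was variation between arrays of one line. Levels in what follows are log2 values relative to the 75th percentile of the array's own spots, so they compare arrays for one probe and not genes with each other. The promoters of genes that varied together across arrays are shown first, because regulation of the cycle is written in short promoter words: the CHR element bound by DREAM, the CCAAT box bound by NF-Y, and the E2F site. The sequences are the 150 bases before the annotated start, from RefSeq on GRCm38.p6, 5′ to 3′ on the gene's strand, and capitals mark a CHR word, a CCAAT box or an E2F word on either strand. The 4 mitotic genes most like Mki67 across arrays are represented by Ccnb2, Birc5 and Cenpe, and the helicase gene Mcm6 stands for replication. The fourth, Prc1, has more than 1 annotated start and is not printed.
Mki67: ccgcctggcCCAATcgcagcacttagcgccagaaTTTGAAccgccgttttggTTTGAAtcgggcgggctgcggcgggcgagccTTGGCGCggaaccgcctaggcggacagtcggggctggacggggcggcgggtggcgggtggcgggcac
Ccnb2: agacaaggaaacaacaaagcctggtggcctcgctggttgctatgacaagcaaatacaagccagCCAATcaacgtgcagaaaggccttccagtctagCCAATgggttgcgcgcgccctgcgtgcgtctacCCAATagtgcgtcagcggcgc
Birc5: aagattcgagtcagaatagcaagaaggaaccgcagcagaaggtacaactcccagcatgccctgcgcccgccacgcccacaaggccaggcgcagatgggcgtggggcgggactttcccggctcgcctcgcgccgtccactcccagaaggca
Cenpe: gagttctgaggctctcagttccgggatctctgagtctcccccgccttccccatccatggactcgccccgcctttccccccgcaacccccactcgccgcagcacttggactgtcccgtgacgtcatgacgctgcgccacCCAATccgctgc
Mcm6: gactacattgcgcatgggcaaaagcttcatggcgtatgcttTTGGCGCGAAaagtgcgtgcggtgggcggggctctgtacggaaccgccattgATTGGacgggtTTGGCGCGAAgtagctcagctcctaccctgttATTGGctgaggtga

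These windows lie at chr7:135716380-135716529 on the minus strand for Mki67, chr9:70421555-70421704 on the minus strand for Ccnb2, and chr11:117849087-117849236 on the plus strand for Birc5. Those of Cenpe and Mcm6 lie at chr3:135212413-135212562 on the plus strand and chr1:128359706-128359855 on the minus strand. The Mki67 window holds 2 CHR words spaced between a CCAAT box and an E2F word, and the Ccnb2 window holds 3 evenly spaced CCAAT boxes. In Mcm6 each capital run of 10 letters is a pair of overlapping E2F words, and no searched word is in the printed window of Birc5, a statement about these letters only.

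The search covered both strands of the 250 bases before the start. The CHR word was TTTGAA or its variant TTTAAA, and the box was searched as CCAAT. The E2F word was TTCCCGC, with the variant TTGGCGC, the variant TTCGCGC and the variant TTGCCGC, and these may overlap each other. The table held 35 promoters of 33 of the 40 genes. A CCAAT box was in 29 of these 35 promoters (82.9%), against 33.8% of all 32851 promoters searched. A CHR word was in 17 of 35 (48.6%, against 25.2% of all), and an E2F word in 9 of 35 (25.7%, against 7.89% of all). By role, 6 of 10 promoters of replication genes held an E2F word and 3 held a CHR word, while of 25 promoters of the other genes 3 held an E2F word and 14 a CHR word. Both a CHR word and a CCAAT box were in 14 of 35 (40%, against 8.78% of all promoters). A match describes letters and was not tested as a binding site in these hearts.

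Mki67 (NM_001081117, chromosome 7) is given first, on the probe used for it throughout. Its level was 0.04, -1.5 and -2.0 on control replicates 1 to 3, and -0.99, -1.64 and -1.18 on I183M replicates. It was -1.61, -0.89 and -0.95 on I183P replicates, and -1.22, -1.55 and -2.75 on delta replicates. Delta replicate 3 was the lowest of the 12 arrays, control replicate 1 the highest, and every pair of groups overlapped. The highest and the lowest delta array differed 2.89-fold. A second Mki67 probe, also detected on all 12 arrays, read -0.83, -2.14 and -2.84 on the delta replicates and -1.55, -0.73 and -0.59 on the I183P replicates, with delta replicate 3 again the lowest. On control replicate 1 the second probe read -1.21, the highest control array there too but close to the others (-1.31 and -1.56), where the first probe lay far above them. The first probe was used because its mean over the 12 arrays was the higher, which rests on control replicate 1. Over the arrays without it the second probe had the higher mean.

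Ccnb2 (NM_007630, chromosome 9) encodes cyclin B2, a partner of CDK1 at entry into mitosis. Its levels were -1.68, -2.19 and -2.75 on control replicates, -1.99, -2.60 and -2.26 on I183M replicates, -2.36, -1.64 and -1.63 on I183P replicates, and -2.04, -2.63 and -3.74 on delta replicates. Prc1 bundles microtubules of the midzone between separating chromosomes. It read -1.87, -2.30 and -2.91 on control, -2.23, -2.66 and -2.35 on I183M, -2.96, -1.64 and -1.66 on I183P, and -1.84, -2.88 and -4.10 on delta replicates. In both genes delta replicate 3 was the lowest array, and I183P replicates 2 and 3 lay above I183P replicate 1. Within the delta line the spread was 3.26-fold for Ccnb2 and 4.78-fold for Prc1, while their I183M arrays spanned less. Under normexp and quantile normalization the delta spread was 1.97-fold for Ccnb2, 2.24-fold for Prc1 and 1.92-fold for Mki67.

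Birc5 encodes survivin, a subunit of the chromosomal passenger complex. Its levels were -1.34, -1.26 and -1.78 on control, -1.18, -1.75 and -1.44 on I183M, -1.68, -0.91 and -0.72 on I183P, and -0.89, -1.70 and -2.46 on delta replicates. Ccna2, whose product cyclin A2 acts in S phase and G2, read -1.72, -2.57 and -3.03 on control, -2.31, -2.78 and -2.48 on I183M, -2.75, -0.92 and -1.90 on I183P, and -2.10, -2.83 and -3.94 on delta replicates. Plk1, a mitotic kinase, read -1.74, -2.47 and -2.82 on control, -2.24, -3.53 and -2.17 on I183M, -2.70, -1.92 and -1.64 on I183P, and -2.13, -2.91 and -3.66 on delta replicates. Ccna2 repeated the order of Mki67, on the probe used, within the I183P and delta lines. Birc5 and Plk1 did so but for the top I183P array, which was replicate 3 in both. The plot of the 6 mitotic genes shows how widely the lines overlapped.

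**Figure D2:**
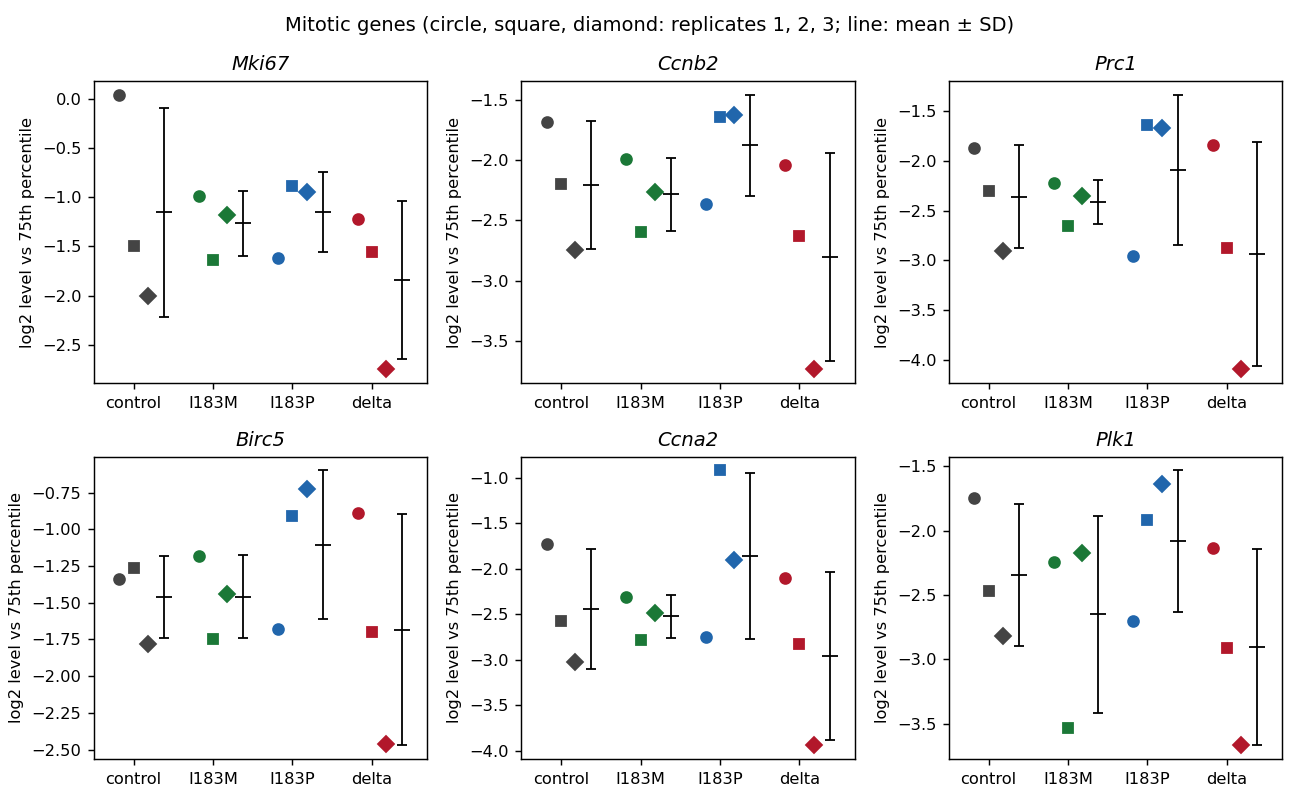
Log2 level relative to the array's 75th percentile (vertical axis) of Mki67, Ccnb2, Prc1, Birc5, Ccna2 and Plk1 in the 4 lines (horizontal axis), with replicates 1, 2 and 3 as circle, square and diamond and the mean ± SD of 3 arrays beside them. In each panel delta replicate 3 is the lowest array, at -2.75 for Mki67 and -4.10 for Prc1, and I183P replicates 2 and 3 lie above I183P replicate 1.

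The same array order held for the detected genes outside replication as a group. For the 14 such genes detected on all 12 arrays, the median deviation from each gene's mean over 11 arrays was 0.67, -0.01 and -0.31 on control replicates 1 to 3, and 0.30, -0.26 and -0.03 on I183M replicates. It was -0.13, 0.51 and 0.64 on I183P replicates and 0.29, -0.13 and -0.84 on delta replicates. The median of the 9 replication genes detected on all arrays stayed between -0.16 and 0.19 on the 11 arrays and was -0.89 on control replicate 1. Single replication genes moved more than their median. Within the delta line their ranges ran from 1.17-fold for Pcna to 1.81-fold for Mcm5. The median of all tested features lay between -0.10 and 0.14 on the 11 arrays. Among these 11 arrays the median of the genes outside replication was thus highest on I183P replicates 2 and 3 and lowest on delta replicate 3. On those arrays the median of the replication genes moved little.

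These values depend in part on the normalization. With normexp background correction and quantile normalization the 14 genes had medians of -0.02, 0.34 and 0.42 on I183P replicates and 0.26, -0.33 and -0.41 on delta replicates, so that I183P replicates 2 and 3 were again the 2 highest and delta replicates 2 and 3 were both low. I183M replicate 1 moved from 0.30 to -0.07. Control replicate 1 changed sides, from 0.67 to -0.87, and its level of mitotic genes is therefore not settled by these data.

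**Figure D3:**
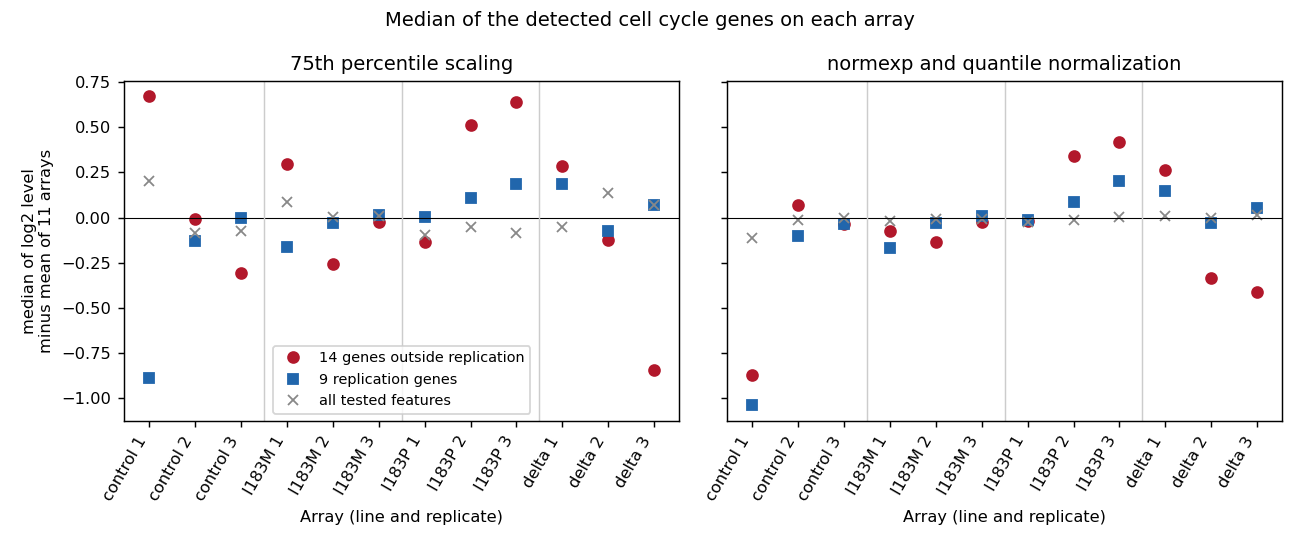
Median deviation of the 14 detected genes outside replication (circles), the 9 detected replication genes (squares) and all 29795 tested features (crosses) on each array, in log2 units from each gene's mean over 11 arrays, under the scaling used throughout (left) and under normexp with quantile normalization (right). The circles reach 0.51 and 0.64 on I183P replicates 2 and 3 and -0.84 on delta replicate 3 at left, and control replicate 1 lies above 0 at left and below 0 at right.

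Spread within a line was measured per gene as the SD over its arrays. In the delta line the median SD was 0.69 for the 14 genes outside replication, 0.21 for the 9 replication genes, 0.17 for all 19425 features detected on all arrays, and 0.26 for the 5191 of these in the 14 genes' range of level. In the I183P line the medians were 0.41 for the 14 genes and 0.22 for features of like level. In the I183M line they were 0.32 and 0.22, and on the remaining pair of control arrays 0.25 and 0.14. On this scale the genes outside replication were thus more spread than features of like level in each line, with the widest gap in the delta line. Under normexp and quantile normalization the median SD in the delta line was 0.35 for the 14 genes, 0.15 for the replication genes and 0.15 for all features detected on all arrays. On the control pair it was then 0.11 for the 14 genes and 0.12 for the replication genes.

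Likeness of other genes to Mki67 was described by Pearson's r over 11 arrays, without control replicate 1 and with each line's mean removed. Mki67 was read from the probe used above, and likeness to its second probe was not computed. The arrays share their line means and their scaling, so these values are descriptions with no test. Over 19424 features detected on all arrays the median r was -0.08, and 13.2% had r above 0.5. Of the 22 cell cycle genes compared, 16 had r above 0.5. The median was 0.89 for the 13 genes outside replication (0.35 to 0.99) and 0.32 for the 9 replication genes (-0.63 to 0.57).

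Ccnb2 was the feature most like Mki67 of all those compared, at r = 0.99. Prc1 (0.95), Birc5 (0.95) and Cenpe (0.93), a kinesin of the kinetochore, ranked 5, 6 and 13. Ccna2 (0.89), Ube2c (0.89), the ubiquitin-conjugating enzyme of the anaphase-promoting complex, Plk1 (0.89), Kif20a (0.87), a kinesin of cytokinesis, and Aurka (0.80), a spindle pole kinase, followed. Foxm1, the factor that drives G2 and M genes, was the least like outside replication (0.35). Among the 50 symbols most like Mki67 were 7 of the cell cycle genes and Tacc3, a spindle gene of the wider list, beside symbols on neither list such as Dot1l (0.97) and H1f5 (0.95). Without delta replicate 3 the medians were 0.81 outside replication, 0.17 in replication and -0.10 over all features, and under normexp and quantile normalization the median outside replication was 0.75.

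**Figure D4:**
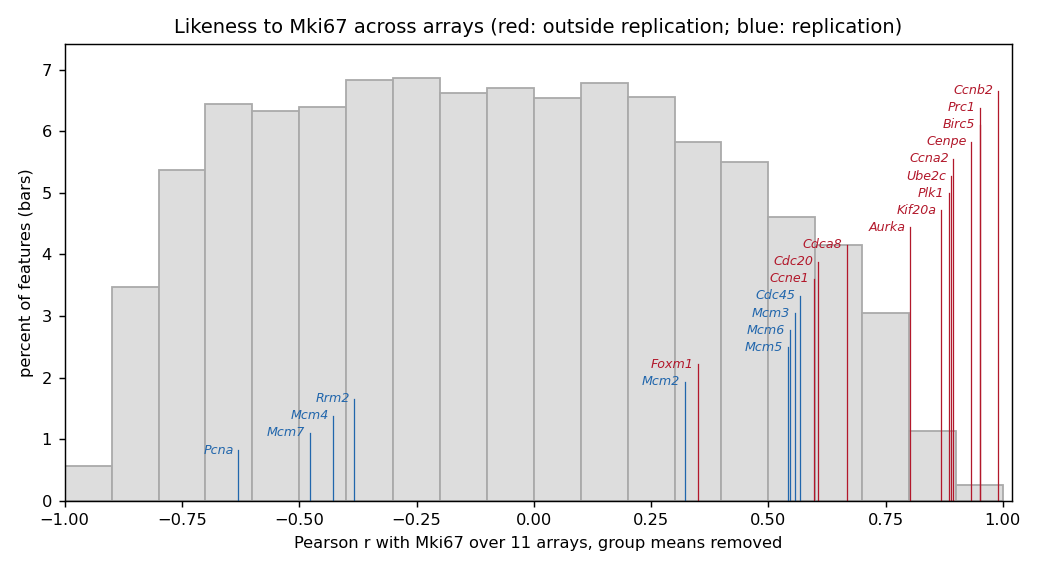
Pearson's r with Mki67 over 11 arrays, line means removed: grey bars give the percent of 19424 features in each bin of 0.1 (vertical axis) and vertical lines mark cell cycle genes, red outside replication and blue in replication; line heights only separate the names. Ccnb2 (0.99), Prc1, Birc5 and Cenpe stand at the right edge, and Pcna, Mcm7, Mcm4 and Rrm2 lie below 0.

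Markers of other cell types moved on some of the same arrays. The 6 erythroid markers tested, 5 of them detected on all 12 arrays, had medians of 0.60 on control replicate 2, 0.37 on I183P replicate 3, 0.64 on delta replicate 3 and -0.54 on delta replicate 2, and between -0.28 and 0.09 on the other 7 of the 11 arrays. They were therefore high on 1 array where mitotic genes were high and on 1 where these were low. The 6 smooth muscle and pericyte markers had medians of 0.09, -0.14 and -0.32 on delta replicates 1 to 3, the order of the mitotic genes there, and of 0.26, 0.04 and -0.07 on I183P replicates, the other order. The 6 lymphocyte markers, 1 of them detected everywhere, ranged from -0.59 on control replicate 2 to 0.47 on delta replicate 2, and the 5 macrophage markers tested from -0.20 to 0.23. The 3 lung and thymus markers tested, 1 of them detected everywhere, ranged from -0.59 on control replicate 2 to 0.90 on delta replicate 2. The medians of the 6 endothelial markers lay between -0.17 and 0.25 on the 11 arrays, and those of the 6 fibroblast markers between -0.19 and 0.18. The fibroblast medians had the same orders as the smooth muscle and pericyte ones. They were 0.14, -0.12 and -0.19 on delta replicates and 0.18, -0.02 and -0.09 on I183P replicates. The part of these cell types in the mitotic pattern was not tested. In RNA from whole tissue, fewer cells of a type and less RNA per cell cannot be told apart.

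The comparisons with the control line ask whether an altered Nkx2-5 allele shifts these genes. In limma's fit over all 12 arrays, none of the 37 tested genes passed an adjusted p of 0.05 in any of the 6 comparisons between lines. The share of all 29795 features that passed was 0% for I183M, 0.00336% for I183P and 0.0738% for delta against control, and 0% in the direct comparisons of the altered lines. At an unadjusted p under 0.05, 0, 1 and 1 of the 37 genes stood against control, where 1.46%, 5.18% and 7.35% of all features did. In the direct comparisons 1 stood between I183P and I183M, 2 between delta and I183M and 0 between delta and I183P, where 1.28%, 3.51% and 2.78% of all features did. Without control replicate 1, 0 of the 37 passed against control by limma, beside 0%, 0.0168% and 0.171% of all features, and 1, 1 and 3 had an unadjusted p under 0.05, beside 6.16%, 8.16% and 14.9%. With 3 arrays a group and the spread described above, these fits do not show that levels were alike.

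The median difference of the 37 genes from control was -0.13 for I183M, 0.15 for I183P and -0.22 for delta (log2), beside 0.11, -0.03 and 0.04 over all features. These medians depended on control replicate 1: without it they were 0.16, 0.27 and 0.09, beside 0.09, 0.01 and 0.16 over all features. The 14 tested genes not detected everywhere accounted for much of the change. Their medians against control went from -0.51, -0.78 and -0.61 with all arrays to 0.63, 0.18 and 0.28 without control replicate 1. Among the 23 genes detected on all arrays, 20 lay above 0 in I183P against control, with a median of 0.34, beside 0.27 over all 19425 features detected everywhere. Without control replicate 1, 18 of the 23 lay above 0, with a median of 0.36 beside 0.00. For delta the 23 genes had a median of -0.09 beside 0.28, and 0.07 beside 0.04 without control replicate 1. Within the 1 slide that held both control and I183P arrays, which leaves out I183P replicate 3, the median of the 37 genes for I183P was 0.04. With slide as a block and control replicate 1 left out it was 0.20. Delta and control shared no slide.

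Of the 37 genes, 4 helicase subunits (Mcm4, Mcm7, Mcm5 and Mcm3) had the smallest p-values of the I183P comparison, and Mcm2 and Mcm6 were not among them. The MCM complex unwinds DNA at the fork and is loaded in G1 as a ring of Mcm2 to Mcm7. Mcm4 (NM_008565, chromosome 16) read 0.26, 1.05 and 1.45 on control replicates, 1.07, 1.47 and 1.48 on I183M, 1.63, 1.57 and 1.65 on I183P, and 1.64, 1.39 and 1.63 on delta replicates. The 3 I183P arrays lay above the 3 control arrays and above the 3 I183M arrays. The difference between I183P and control was 0.69 (SE 0.29, 1.62-fold) with an adjusted p of 0.563 in limma's fit, and it was 0.36 without control replicate 1 and 0.68 with slide as a block.

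Mcm7 read 0.49, 1.11 and 1.45 on control replicates, 1.12, 1.41 and 1.29 on I183M, 1.61, 1.53 and 1.52 on I183P, and 1.5, 1.23 and 1.46 on delta replicates. Mcm3 read -0.44, 0.67 and 0.64 on control, 0.47, 0.63 and 0.58 on I183M, 0.72, 0.74 and 1.18 on I183P, and 0.96, 0.72 and 0.52 on delta replicates. Mcm5 read -1.69, -1.49 and -1.44 on control, -1.70, -1.09 and -1.26 on I183M, -1.30, -0.92 and -0.69 on I183P, and -0.93, -1.41 and -1.79 on delta replicates. In all 3 the I183P arrays lay above every control array, though the lowest I183P array lay close to the highest control array in each. Their differences from control were 0.53 (SE 0.25), 0.59 (SE 0.31) and 0.57 (SE 0.28), each with an adjusted p of 0.563 in limma's fit. Without control replicate 1 they were 0.27, 0.22 and 0.50.

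These 4 were the cell cycle genes whose I183P and control arrays did not overlap, all higher and none lower, among 37. Over all features 7.55% were higher and 5.23% lower without overlap. Without control replicate 1, 9 of the 37 genes were higher and 0 lower, beside 14.6% and 15.9% of all features. Against the same control pair, 6 genes were higher and 3 lower in I183M, beside 23.4% and 9.07%, and 4 were higher and 1 lower in delta, beside 22.4% and 11.7%. The median of Mcm2 to Mcm7 for I183P against control was 0.55, all 6 above 0. Without control replicate 1 it was 0.25, with 4 of 6 above 0. Over all features detected on all arrays the median was 0.27, and 0.00 without that array. A shift above 0 was not particular to I183P. The median of the 6 genes against control was 0.26 in I183M (5 above 0) and 0.34 in delta (6 above 0). Without control replicate 1 these were -0.04 (2 above 0) and 0.10 (5 above 0). The 6 differences of I183P from I183M were all above 0, with a median of 0.30, beside -0.02 over all features detected on all arrays. In that comparison 20 of the 23 genes detected everywhere lay above 0. It uses the same I183P arrays as the comparison against control, so it is no separate support.

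**Figure D5:**
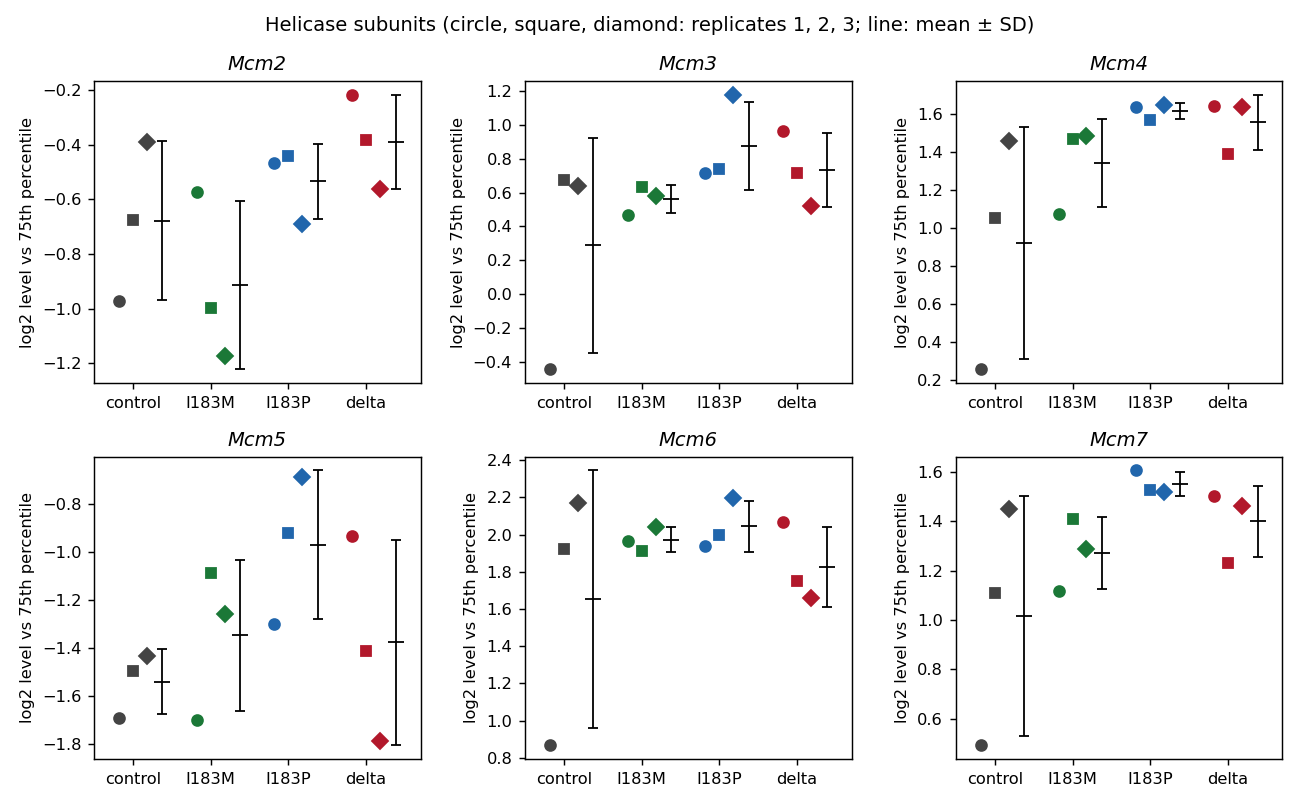
Log2 level relative to the array's 75th percentile (vertical axis) of the helicase subunits Mcm2 to Mcm7 in the 4 lines (horizontal axis), with replicates 1, 2 and 3 as circle, square and diamond and the mean ± SD of 3 arrays beside them. Control replicate 1 is the lowest control array in each panel, and in Mcm4 and Mcm7 the 3 I183P arrays lie above all control and I183M arrays.

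Of the other replication genes, Pcna, the sliding clamp of the polymerases, read 2.31, 3.47 and 3.65 on control replicates, 3.48, 3.57 and 3.62 on I183M, 3.48, 3.49 and 3.58 on I183P, and 3.69, 3.64 and 3.87 on delta replicates. Outside control replicate 1 it spanned 1.32-fold over the 11 arrays, the narrowest range of the 40 genes. It was 0.59 higher in delta than in control (SE 0.31, limma adjusted p = 0.704) and 0.17 higher without control replicate 1. Mcm2 read -0.97, -0.67 and -0.39 on control, -0.57, -1.0 and -1.17 on I183M, -0.47, -0.44 and -0.69 on I183P, and -0.22, -0.38 and -0.56 on delta replicates. Its differences from control were -0.24, 0.15 and 0.29 for I183M, I183P and delta (SE 0.23), and -0.38, -0.00 and 0.14 without control replicate 1.

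Cdc45, the helicase cofactor that starts the fork, read -1.12, -1.94 and -1.84 on control replicates, -1.69, -1.62 and -1.71 on I183M, -1.81, -1.57 and -1.07 on I183P, and -1.11, -0.95 and -1.45 on delta replicates. Only control replicate 1 among the control arrays reached the delta range. The difference between delta and control was 0.46 (SE 0.28, limma adjusted p = 0.704), and 0.72 (SE 0.22, limma adjusted p = 0.191) without control replicate 1. Rrm2, a subunit of ribonucleotide reductase, and Cdc6, which loads the helicase, did not pass either, and Cdc6 was detected on 3 arrays in all.

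Cyclins and kinases without detection on every array had readings not well above background on some arrays, which limits their differences. Cdk1, the kinase of mitotic entry, read -4.71, -4.04 and -4.47 on control replicates, -5.02, -4.98 and -4.82 on I183M, -5.10, -3.88 and -3.17 on I183P, and -3.56, -4.51 and -5.95 on delta replicates. Its detection covered 3 of 3 control arrays and 0 of 3 in I183M, and it was the 1 cell cycle gene of 37 whose I183M and control arrays did not overlap. Over all features, 1.37% were lower and 2.36% higher without overlap in that comparison. The fitted difference was -0.53 (SE 0.61, limma adjusted p = 0.884), -0.69 without control replicate 1 and -0.19 under normexp and quantile normalization. A second Cdk1 probe, detected on 3 arrays, read -3.51, -4.96 and -5.49 on I183M and -5.57 and -6.69 on control replicates 2 and 3, the other direction. On the probe used, and with the scaling used, the fitted level of Cdk1 was 1.45-fold higher in control than in I183M. Against I183M it was 1.86-fold higher in I183P (fitted difference 0.89, limma adjusted p = 1.00), with 2 of 3 I183P arrays detected. That fitted difference was 0.55 under normexp and quantile normalization. A bound was also computed, which sets the bright group's mean against the dim group's mean, raised on each array to the lowest level called above background. For Cdk1 the bound equalled the fitted difference, so it sets no lower limit.

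Ccnb1, which encodes cyclin B1, read -1.54, -4.73 and -5.36 on control replicates, -3.52, -5.80 and -6.02 on I183M, -4.61, -4.25 and -3.61 on I183P, and -4.02, -3.36 and -6.07 on delta replicates, and was detected on 6 arrays. Its difference of -1.24 between I183M and control (SE 1.1, limma adjusted p = 0.879) was -0.07 without control replicate 1. Cdca3, which marks the kinase Wee1 for destruction, read -3.59, -3.64 and -4.18 on control, -3.60, -4.68 and -4.72 on I183M, -3.69, -3.37 and -2.62 on I183P, and -3.13, -4.01 and -4.03 on delta replicates. It differed by -0.53 between I183M and control (SE 0.41, limma adjusted p = 0.879). Between I183P and I183M its difference was 1.1 (SE 0.41, limma adjusted p = 1.00), with 3 I183P and 1 I183M arrays detected.

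Among spindle and chromosome genes the smallest p of delta against control was that of Cenpf (NM_001081363, chromosome 1), which encodes a large kinetochore protein. Its probe read -1.71, -4.95 and -3.87 on control replicates, -3.72, -4.17 and -3.14 on I183M, -5.85, -4.36 and -4.85 on I183P, and -6.48, -4.89 and -6.82 on delta replicates. It was not well above background on any delta array, and on 2 control, 2 I183M and 1 I183P arrays it was. Delta replicate 2 lay just above control replicate 2, so these groups touched. With all 3 control arrays, Cenpf was at least 4.78-fold higher in control than in delta (fitted log2 difference -2.56, SE 0.81, limma adjusted p = 0.433). The fitted difference was -1.65 without control replicate 1, so this bound does not hold without that array. Under normexp and quantile normalization it was -0.55. Against I183M, Cenpf was at least 4.25-fold higher in I183M than in delta (fitted difference -2.39, SE 0.81, limma adjusted p = 1.00), with no overlap. That fitted difference was -0.60 under normexp and quantile normalization. The size of both bounds therefore holds for the scaling used here only, and that against control only with control replicate 1 included.

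Top2a, the topoisomerase that untangles sister chromatids, was detected on 4 arrays and read -3.27, -4.82 and -4.73 on control replicates, -4.43, -5.68 and -5.0 on I183M, -6.18, -4.59 and -4.14 on I183P, and -4.47, -4.03 and -6.39 on delta replicates. Its fitted difference between I183M and control was -0.77 (SE 0.75, limma adjusted p = 0.879), with control replicate 1 the only detected array of these 6. It was -0.26 without control replicate 1 and 0.06 under normexp and quantile normalization, so no bound is given. Ndc80, the kinetochore's microtubule coupler, ranged outside control replicate 1 from -5.01 on I183P replicate 1, where it was not well above background, to -0.57 on delta replicate 2. Because the lower end is a background reading, no fold is given, and under normexp and quantile normalization the range over these arrays was 4.06-fold. Delta replicate 2 and I183M replicate 1 were, after control replicate 1, the arrays with most spots above background, and dim members such as Ndc80, Bub1, Ccnb1 and Kif11 read high on delta replicate 2. The part of that signal level in their values was not tested.

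On the probe used, Mki67 itself differed from control by -0.11 in I183M, 0.01 in I183P and -0.69 in delta (SE 0.55, limma adjusted p = 0.994, 0.995 and 0.731). Without control replicate 1 these were 0.48, 0.60 and -0.09. Ccna2 differed by -0.09, 0.58 and -0.52 (SE 0.57), and by 0.27, 0.94 and -0.16 without control replicate 1. In I183M the sign of both differences therefore rested on 1 control array, for Mki67 on the probe used. The second Mki67 probe, on which that array lay close to the other control arrays, was not part of these values. There, delta replicates 2 and 3 (-2.14 and -2.84) fell below every control array, of which the lowest stood at -1.56. Delta replicate 1 (-0.83) exceeded them all. The I183M arrays of this probe, from -1.42 to -1.20, were near control replicate 2 (-1.31). The delta value of -0.09 and the I183M value of 0.48 are therefore those of the first probe only.

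Direct comparisons of the altered lines take their differences from the altered lines' arrays alone, but their SEs and p-values share the spread of all 12 arrays, control replicate 1 included. Without that array the smallest adjusted p of the 37 genes in limma's fit was 0.522 for I183P against I183M, 0.205 for delta against I183M and 0.388 for delta against I183P, in place of 1.00, and 0, 13 and 7 of all features passed in place of 0. Between I183P and I183M the 37 genes had a median difference of 0.27, beside -0.09 over all features, and 20 of the 23 genes detected everywhere lay above 0. Aurka, a kinase of the spindle poles, read -2.15, -1.83 and -1.33 on I183P and -2.23, -2.82 and -2.15 on I183M replicates, a difference of 0.64 (SE 0.31, limma adjusted p = 1.00) with adjoining ranges. In this comparison 5 of 37 genes were higher without overlap (Mcm3, Mcm4, Mcm7, Ccne1 and Aurka) and 2 lower (Ndc80 and Cenpf), beside 5.79% and 18.6% of all features. The median difference was 0.13 within the 1 slide that held both lines, which leaves out I183P replicate 3.

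Between delta and I183P the median of the 37 genes was -0.22, beside 0.14 over all features, and 19 of the 23 genes detected everywhere lay below 0. Ccnb2 gave the smallest p, a difference of -0.93 (SE 0.45, limma adjusted p = 1.00), followed by Ccna2 at -1.1 (SE 0.57, limma adjusted p = 1.00). The arrays of both genes overlapped between these lines, since delta replicate 1 lay above I183P replicate 1. Without overlap 3 of 37 genes were higher in delta (Pcna, Foxm1 and Ndc80) and 4 lower (Mcm7, Ccne1, Cdc20 and Ube2c), beside 13.4% and 6.07% of all features. Within the slide that held delta and I183P replicate 3, the median difference was -0.45. That value sets 3 delta arrays against 1 I183P array. On this I183P array the median of the 14 genes outside replication was the highest of the 11 arrays, at 0.64.

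Between delta and I183M the median was -0.03, beside -0.02 over all features, and these lines shared no slide, so that slide and line cannot be told apart. Mcm2 was 0.53 higher in delta (SE 0.23, limma adjusted p = 1.00), and its highest I183M array, at -0.57, adjoined its lowest delta array, at -0.56. Without overlap 3 genes were higher (Mcm2, Cdc45 and Pcna) and 2 lower (Bub1b, a checkpoint kinase, and Cenpf), beside 11% and 6.28% of all features. For delta and control, which also shared no slide, 0 of 37 genes lay without overlap in either direction, beside 10.5% higher and 3.1% lower of all features.

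A wider list of 104 other cell cycle genes, among them the D cyclins, CDK inhibitors, E2F factors, origin and condensin subunits, was read in the same fit. Of these, 97 were tested and 76 were detected on all 12 arrays, and 0 passed in any of the 6 comparisons by limma. Their median difference from control was 0.08, 0.18 and 0.13 for I183M, I183P and delta, and 0.03, 0.05 and 0.07 without control replicate 1. At an unadjusted p under 0.05 there were 0, 5 and 5 of the 97. Lig1, the ligase that joins Okazaki fragments, was among the 4 smallest p-values in each comparison with control, which share the control arrays: its differences were 0.36, 0.48 and 0.51 (SE 0.19, limma adjusted p = 0.879, 0.563 and 0.573), and 0.21, 0.34 and 0.37 without control replicate 1.

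The other genes of the wider list with the smallest p-values were each named in 1 comparison. For I183M they were Cenpa, the centromeric histone (0.76, and 0.29 without control replicate 1), Rrm1, the large subunit of ribonucleotide reductase (0.42, and 0.15 without it), and Kif18a, a kinesin detected on no I183M array (fitted difference -1.24, and -0.77 without it). For I183P they were Kif22, a chromosome-arm kinesin (0.61 with and without that array), Anln, the cytokinesis protein anillin (0.60, and 0.36 without it), and Lin9, a DREAM subunit (0.56, and 0.55 without it). For delta they were Gins3, a subunit of the fork helicase (0.93, and 0.45 without it), E2f4, a repressing E2F factor (0.67, and 0.42 without it), and Spc25, a partner of Ndc80 (0.58, and 0.49 without it). None of these passed limma's adjusted threshold, and their smallest adjusted p was 0.563.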

How the data were processed

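Heart RNA was measured on 12 single-colour Agilent arrays. Per the file headers, the image software was Feature Extraction 11.0.1.1 (protocol GE1_1100_Jul11; probe layout on mm9), and the deposited processed intensity was background-corrected within each array and not normalized between arrays. The table of log2 values deposited by the authors served as an alternative. The submitters' processing notes also name limma, without a version.

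Here processed intensities were put on a log2 scale, spots marked as outliers or controls were dropped, a probe's spots averaged, and the 75th percentile of all 59305 non-control spots was subtracted per array. Accessions matched without versions to a RefSeq table (GRCm38.p6) named 27235 of 55681 probes. Testing required a spot of the probe well above background on 3 or more of the 12 arrays; 96 probes with a missing value were left out. Each gene took the tested probe of highest mean, and features without a symbol were grouped by accession. The test was limma 3.58.1 (lmFit and eBayes, R 4.3.3) on all 12 arrays in 1 fit at a Benjamini-Hochberg adjusted p under 0.05, and the script was tested on simulated data. Array number limits precision.

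The members and lists were chosen with earlier results of these data known. The text names any member; in full, per comparison with control, the 4 members with the smallest p, per direct comparison 2, and Mki67, Top2a, Cdk1, Ccna2, Pcna and Mcm2. Others shown on every array (Ccnb2, Prc1, Birc5, Plk1, Cdc45, Aurka) were picked after their values were seen. Of the wider list the 4 smallest p per comparison are named. Alternatives were other scalings, filters, blocks, weights, probe rules and each array left out.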

Additional observations from a re-analysis of the deposited data

How the results depend on the processing

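The tested cell cycle genes numbered 37 in most settings. They numbered 40 with no filter, 32 with a filter of at least 6 arrays, and 36 with a filter that did not count control replicate 1. Across 31 settings other than the main one, 0 of the tested genes passed limma's threshold in 183 of 184 counts. The exception was array weights by the default method, which stopped before converging: 3 genes (Cdc20, Cdca3 and Mcm2) passed between I183P and I183M, where 1985 of all features did. Weights estimated gene by gene, a setting chosen after seeing the data, gave 0, with a smallest adjusted p of 0.0553. Also chosen after seeing the data were the percentile over averaged probes, detection by at least 50% of a probe's spots and unnamed features counted per probe, each with 0 genes past the threshold. Of 1526 named differences under these settings, 1423 kept their sign and had no call, 101 had the other sign without a call, 2 were called and 0 reversed.

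Median scaling moved the genes' median to 0.94 for I183P against control, 0.82 for I183P against I183M and -0.62 for delta against I183P, while the median of all features moved to 0.76, 0.46 and -0.26. With slide as a block the median was -0.79 for delta against control and -0.43 for delta against I183M (with control replicate 1 also left out, -0.33 and -0.43). Delta shares no slide with control or I183M, so these values pass through the lone I183P array on its slide. Leaving out each array in turn, the median for delta against control ranged from -0.67 (without control replicate 3) to 0.088 (without control replicate 1). Detection on all 12 arrays rose from 23 to 35 genes by the lenient call. Deviations of same-numbered arrays correlated at 0.79, 0.56 and 0.50 between control and I183M, and from -0.81 to 0.32 between the other lines. Replicate 1 had the most spots above background in control (99.1%) and I183M (72.8%), and replicate 2 had the most in delta (75.2%). With the line mean removed, the deviations of 3 arrays also depend on each other. These correlations therefore cannot show whether the numbers pair the lines. With the replicate block 0 genes passed in each comparison, and the medians were as without it (-0.13, 0.15 and -0.22 against control). Dim probes limit the rest: 14 tested genes had no value above background on at least 1 array.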
